A study of Homo sapiens with 12 samples.

Results

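Ribosome biogenesis is the nucleolar process in which RNA polymerase I transcribes ribosomal DNA, small nucleolar ribonucleoproteins (snoRNPs) guide the chemical modification of the transcript, and assembly factors cut, fold and package it into the small and large ribosomal subunits. The RNA exosome is the main 3′-to-5′ RNA degradation complex; a ring of subunits without catalytic activity threads RNA towards attached nucleases, and in the nucleolus it trims ribosomal RNA precursors. Both sets of genes are broadly expressed in growing cells and are known to rise and fall with cell growth. The genes described here are 45 genes picked by symbol, 35 of ribosome biogenesis and 10 subunits of the RNA exosome, among the 23771 genes that both deposited tables share. All 45 passed the filter on low counts and were tested in all 3 comparisons.

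All levels were measured in A549 cells, an established line of human lung adenocarcinoma used between passages 5 and 10 and grown in Ham's F-12K medium with fetal bovine serum. The 3 groups were control cells, cells given TGF-β1 at 10 ng/mL, and cells given 10 ng/mL TGF-β1 with 40 mM sodium acetate, all for 2 days, with 4 libraries a group. The growth factor TGF-β1 drives epithelial cells to take on mesenchymal features, and acetate is a precursor of acetyl-CoA. A group given acetate without TGF-β1 was not analysed here, so the acetate comparisons describe acetate in the presence of TGF-β1. No label names a matching amount of sodium or other salt in the other groups. Acetate and the sodium added with it therefore cannot be told apart, and "acetate" below stands for both. Libraries were made from total RNA after ribosomal RNA removal, so the values are of messenger RNAs and other transcripts, not of ribosomal RNA. No label names the group of a count column (control columns are S1 to S4, TGF-β1 columns S15 to S18 and acetate columns S22 to S25); columns were placed by the tables that hold them, and every comparison rests on that placement. Whether a group's libraries are of separate cultures is not stated in the labels; each p-value therefore reflects library-to-library spread that may be technical. In such bulk samples, fewer cells of a type and less RNA per cell cannot be told apart.

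Total counts ran from 34698057 to 53936023 per library, and the lowest count of any of the 45 genes in any library was 201, far above the floor of 3 counts. All 5 epithelial markers checked were among the genes analysed, and they did not move as one. KRT8 ranged from 2180 to 2360 CPM in control, 2010 to 2180 with TGF-β1 and 2450 to 2810 with acetate, and KRT18 from 1930 to 2010, 1350 to 1420 and 1810 to 2050 CPM in the same order. KRT7 ranged from 1810 to 1860, 2050 to 2240 and 2690 to 2890 CPM, KRT19 from 32.6 to 40.4, 6.01 to 7.29 and 55.4 to 73.7 CPM, and EPCAM from 3.92 to 4.7, 0.705 to 1.19 and 5.59 to 6.29 CPM. Of the alveolar type II markers 1 of 4 was among the genes analysed (SFTPB, at most 0.44 CPM), of the leukocyte markers 1 of 4, and of the endothelial and erythroid markers 0 of 3 and 0 of 2. That leukocyte marker, CD68, a lysosomal protein, ranged from 9.79 to 12.5 CPM in control, 12.3 to 15.4 with TGF-β1 and 22.2 to 24.2 with acetate. Genes of small RNAs took 7.14 ± 0.82%, 6.54 ± 0.48% and 5.24 ± 0.43% of the counts in control, TGF-β1 and acetate libraries (SD, n = 4). The part of these markers and of small RNAs in the results below was not tested.

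Summed over the 45 genes, the level was a little lower with TGF-β1 and much lower when acetate was added. It was 5450 ± 111 CPM in control, 5133 ± 83.3 CPM with TGF-β1 and 3343 ± 67.8 CPM with TGF-β1 and acetate (CPM, read counts scaled to TMM-adjusted library totals, SD, n = 4). The libraries ran from 5316 to 5543, from 5057 to 5244 and from 3299 to 3444 CPM in the same order, so the groups did not overlap. The 35 biogenesis genes summed to 5018 ± 108, 4708 ± 78.3 and 3045 ± 64.4 CPM and the 10 exosome genes to 431 ± 4.59, 424.5 ± 7.51 and 298.8 ± 4.07 CPM. As a share of all raw counts, which does not use the TMM factors, the 45 genes took 0.552 ± 0.018%, 0.486 ± 0.0057% and 0.349 ± 0.0040%. A single gene, NPM1, made up 24.8% of the summed control level, so the counts of genes below give a view that the sum does not.

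With TGF-β1 against control, 11 of the 45 genes rose and 28 fell in edgeR's quasi-likelihood test with Benjamini-Hochberg adjustment over all genes, at an adjusted p below 0.05. The background in that comparison was 34.1% of 22051 tested genes higher and 32.8% lower. The median log2 fold change of the 45 genes was -0.18, against 0.016 for all genes tested, and single genes ran from -0.63 to 0.33. The 4 TGF-β1 libraries lay wholly above the 4 control libraries for 11 of the 45 genes and wholly below for 24, where the background was 31.1% and 30.4%. With library totals in place of TMM factors, 8 of the 45 genes rose and 32 fell, and the split of all genes was 6078 higher and 8676 lower instead of 7518 and 7224. The direction was divided within most roles, and single genes stood between 0.645-fold and 1.26-fold of their control level.

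Nearly the whole list was lower when acetate was added to TGF-β1. Against TGF-β1 alone, 44 of the 45 genes fell, 0 rose and 1, NOP10, did not pass. The background was 33.3% of 22336 genes higher and 30.4% lower. The median log2 fold change was -0.52, against 0.026 for all genes, and single genes ran from -0.97 to -0.012. More than 1.5-fold falls that passed the test were found for 16 of the 45 genes, against 8.26% of all genes tested. For the same 44 genes the acetate libraries lay wholly below the TGF-β1 libraries, and for 0 wholly above, where the background was 27.4% and 30.0%. With library totals 1 of the 45 genes rose and 42 fell, and the split of all genes was 9592 higher and 4699 lower instead of 7437 and 6792. In the authors' deposited tables, 11 of the 45 genes were higher and 29 lower with TGF-β1 at a q-value below 0.05, and 0 were higher and 44 lower with acetate.

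Cells given TGF-β1 and acetate also stood below untreated control cells. In that comparison 1 gene (NOP10) rose, 42 fell and 2 (RRP1B and EXOSC4) did not pass, where the background was 36.1% of 22742 genes higher and 34.4% lower. The median log2 fold change was -0.75, against 0.023 for all genes, with a range from -1.36 to 0.31, and 30 of the 45 genes passed with a fall of more than 1.5-fold, against 14.7% of all genes tested. Groups did not overlap for 1 gene upward and 42 downward, where the background was 32.4% and 31.6%. The comparisons share libraries (the TGF-β1 libraries stand in the first and second, the control and acetate libraries in the third as well), so their values are given side by side and are not separate pieces of evidence.

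**Figure D1:**
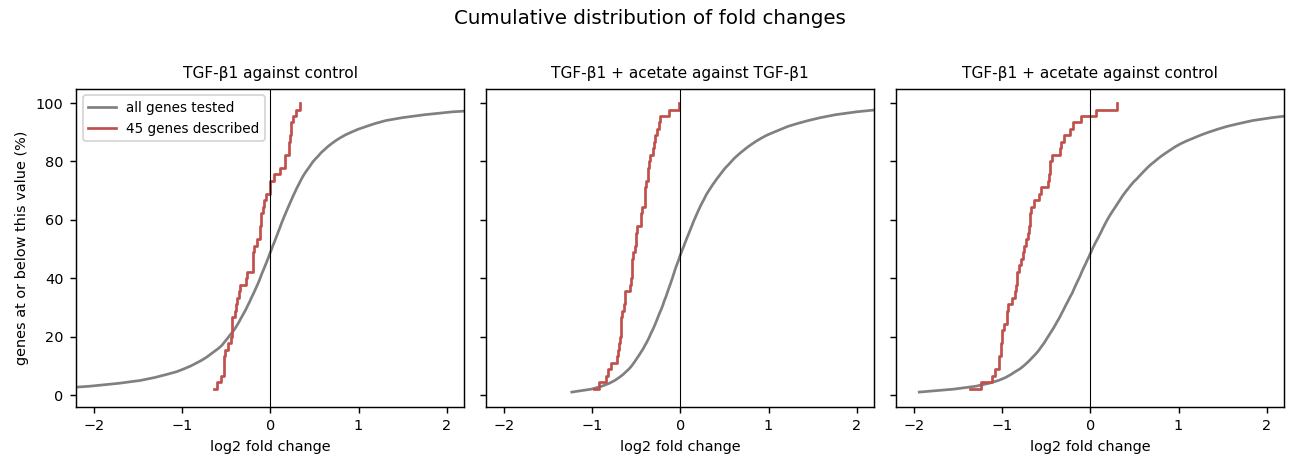
Cumulative percentage of genes (vertical axis) at or below each log2 fold change (horizontal axis) for all genes tested (grey) and the 45 ribosome biogenesis and RNA exosome genes (red) in the 3 comparisons. The medians of the 45 genes were -0.18, -0.52 and -0.75, and those of all genes 0.016, 0.026 and 0.023.

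The cumulative plot of fold changes shows how narrow the distribution of the 45 genes was. With TGF-β1 the red curve spanned -0.63 to 0.33 and lay above the grey curve over most of that span, and with acetate it lay to the left of the grey curve over most of its length. The plot by gene and role shows the same values one by one. The counts of each role below are to be read beside the shares of all genes tested. Those were 34.1% higher and 32.8% lower with TGF-β1, and 33.3% and 30.4% with acetate against TGF-β1. With both agents against control they were 36.1% and 34.4%. Most roles hold few genes, and the 6 polymerase genes (33.3% higher and 50% lower with TGF-β1) were not far from these shares.

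**Figure D2:**
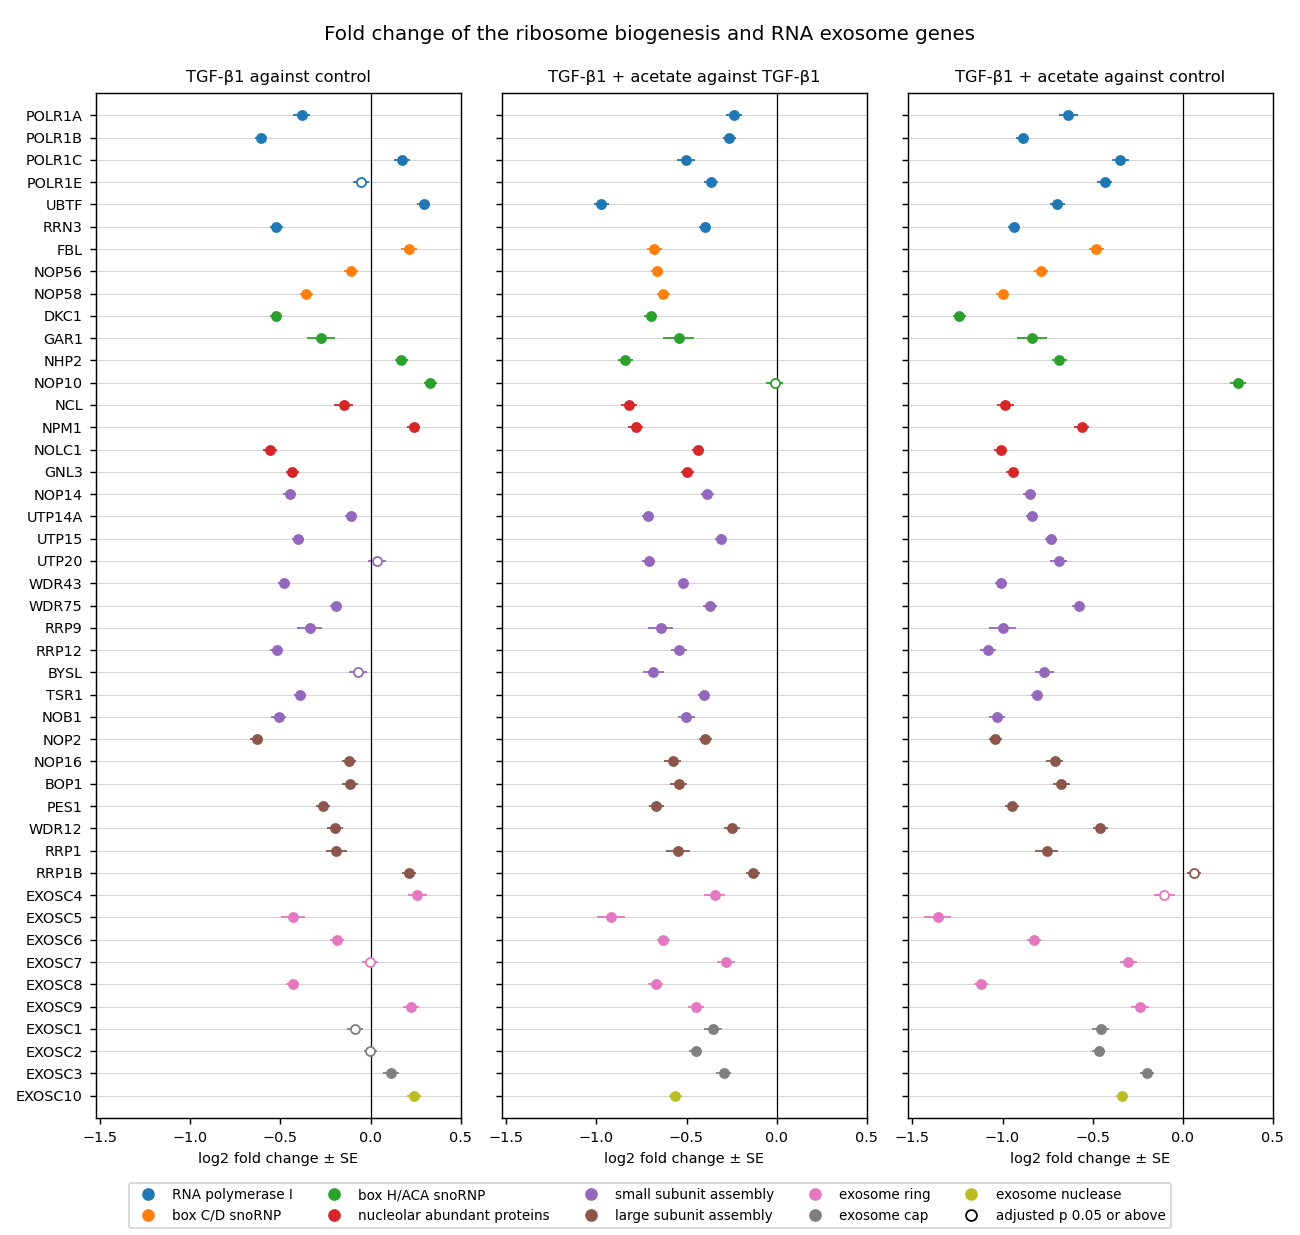
Log2 fold change ± SE of each of the 45 genes in the 3 comparisons, coloured by role; open points had an adjusted p of 0.05 or above. With acetate against TGF-β1 every point lies at or left of 0, NOP10 being closest to it (-0.012), and the points of NOP10 and RRP1B move to 0.12 and to 0.00026 when library totals replace TMM factors.

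RNA polymerase I and its initiation factors opened the list with 6 genes, of which 2 rose and 3 fell with TGF-β1 and all 6 fell with acetate, at medians of -0.22 and -0.38. UBTF, the upstream binding factor that coats active ribosomal DNA (ENSG00000108312.14, chromosome 17, 44205033 to 44221626), had the largest fall of all 45 genes with acetate. UBTF was at 110, 103, 109 and 103 CPM in control, at 131, 128, 129.7 and 129 with TGF-β1 and at 71.1, 64.9, 63.2 and 62.7 with acetate. It rose with TGF-β1 and then fell below control with acetate, and no group overlapped another. For UBTF the log2 fold change was 0.29 ± 0.035 (SE) with TGF-β1 (adjusted p = 1.3e-06), -0.97 ± 0.041 with acetate against TGF-β1 (adjusted p = 1.9e-11) and -0.69 ± 0.041 with both agents against control (adjusted p = 1.1e-11). POLR1B, the second-largest catalytic subunit of the polymerase (ENSG00000125630.15, chromosome 2, 112541915 to 112577150), moved differently. POLR1B was at 65.4, 61.9, 63.6 and 65.2 CPM in control, at 42.0, 41.0, 41.4 and 42.8 with TGF-β1 and at 34.6, 33.6, 34.9 and 35.3 with acetate. Its largest step was the fall with TGF-β1, and the acetate libraries were lower still, with no overlap. For POLR1B the log2 fold change was -0.61 ± 0.035 (SE) with TGF-β1 (adjusted p = 1.5e-10), -0.26 ± 0.037 with acetate against TGF-β1 (adjusted p = 1.5e-05) and -0.89 ± 0.035 with both agents against control (adjusted p = 2.3e-14).

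RRN3, the factor that brings RNA polymerase I to the promoter and is the mammalian TIF-IA (ENSG00000085721.12, chromosome 16, 15060022 to 15094317), followed the order of POLR1B. RRN3 was at 119, 126, 128 and 123 CPM in control, at 81.6, 86.8, 87.3 and 88.1 with TGF-β1 and at 65.1, 64.7, 64.6 and 64.5 with acetate. All 3 groups were apart. For RRN3 the log2 fold change was -0.52 ± 0.036 (SE) with TGF-β1 (adjusted p = 1.7e-09), -0.40 ± 0.034 with acetate against TGF-β1 (adjusted p = 5.2e-08) and -0.94 ± 0.035 with both agents against control (adjusted p = 1.1e-14). Its named pseudogenes number 2, so some of its reads may belong to them or be lost to them. The same limit holds for NOP56, with 3 named pseudogenes, and for NCL, NHP2, PES1 and EXOSC3, with 2 each. POLR1A, the largest subunit, had mean levels of 142 ± 11.9, 109 ± 1.37 and 91.8 ± 6.08 CPM, with log2 fold changes of -0.38 with TGF-β1 and -0.24 with acetate. POLR1C, a subunit shared with RNA polymerase III, rose with TGF-β1 by 0.17 on the log2 scale and fell with acetate (-0.50). POLR1E, a subunit specific to RNA polymerase I, had a log2 fold change of -0.053 with TGF-β1 (adjusted p = 0.31) and fell with acetate (-0.36).

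Box C/D snoRNPs guide 2′-O-methylation of ribosomal RNA, and their 3 core genes all fell with acetate, at a median of -0.66. With TGF-β1, 1 of them rose and 2 fell. NOP58 (ENSG00000055044.10, chromosome 2, 202265716 to 202303666) and NOP56 (ENSG00000101361.15, chromosome 20, 2652145 to 2658393) encode the paired scaffold proteins of the particle. NOP58 was at 101, 96.1, 102 and 102 CPM in control, at 79.1, 76.5, 78.2 and 78.5 with TGF-β1 and at 49.8, 51.9, 49.5 and 49.5 with acetate. These 3 groups were apart. For NOP58 the log2 fold change was -0.36 ± 0.034 (SE) with TGF-β1 (adjusted p = 8.2e-08), -0.63 ± 0.034 with acetate against TGF-β1 (adjusted p = 3.2e-10) and -1.0 ± 0.034 with both agents against control (adjusted p = 2.3e-15). NOP56 was at 319.5, 290.4, 321 and 305 CPM in control, at 285, 285, 276 and 296 with TGF-β1 and at 180.1, 179, 182 and 175 with acetate. The NOP56 control and TGF-β1 libraries overlapped, with the acetate libraries below both. For NOP56 the log2 fold change was -0.11 ± 0.038 (SE) with TGF-β1 (adjusted p = 0.019), -0.66 ± 0.033 with acetate against TGF-β1 (adjusted p = 1.2e-10) and -0.79 ± 0.037 with both agents against control (adjusted p = 3.6e-13). Its fall with TGF-β1 lost its call without library S17 (adjusted p = 0.071). FBL, fibrillarin, the methyltransferase of the particle, went the other way with TGF-β1: mean levels were 113 ± 5.60, 131 ± 5.78 and 81.1 ± 2.96 CPM, with log2 fold changes of 0.21 and then -0.68.

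Box H/ACA snoRNPs convert uridine to pseudouridine, and this set held NOP10, the 1 gene of the 45 that did not pass with acetate against TGF-β1. DKC1, dyskerin, the pseudouridine synthase, which is also part of telomerase (ENSG00000130826.16, chromosome X, 154762742 to 154777689), was among the largest falls against control. DKC1 was at 149.8, 149, 155 and 147 CPM in control, at 104, 100.4, 108 and 104 with TGF-β1 and at 64.1, 62.3, 66.2 and 62.1 with acetate. No group overlapped another. For DKC1 the log2 fold change was -0.53 ± 0.034 (SE) with TGF-β1 (adjusted p = 7.7e-10), -0.70 ± 0.036 with acetate against TGF-β1 (adjusted p = 1.8e-10) and -1.24 ± 0.035 with both agents against control (adjusted p = 1.8e-16). With both agents the level was 0.423-fold that in control.

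NOP10, the smallest protein of the same particle (ENSG00000182117.5, chromosome 15, 34341713 to 34343177), rose with TGF-β1 and did not pass with acetate. NOP10 was at 69.7, 67.9, 69.0 and 72.8 CPM in control, at 83.8, 90.2, 85.3 and 91.3 with TGF-β1 and at 87.6, 82.1, 93.3 and 82.3 with acetate. The control libraries lay below all others, while the TGF-β1 and acetate libraries overlapped. For NOP10 the log2 fold change was 0.33 ± 0.038 (SE) with TGF-β1 (adjusted p = 8.3e-07), -0.012 ± 0.045 with acetate against TGF-β1 (adjusted p = 0.83) and 0.30 ± 0.044 with both agents against control (adjusted p = 4.4e-06). With library totals in place of TMM factors the difference between acetate and TGF-β1 turned to 0.12 on the log2 scale (adjusted p = 0.017). NHP2, the RNA-binding protein next to it in the particle (ENSG00000145912.8, chromosome 5, 178149460 to 178153967), had one of the 6 largest falls with acetate. NHP2 was at 99.3, 98.4, 99.2 and 101 CPM in control, at 104, 114, 112 and 116 with TGF-β1 and at 62.2, 59.8, 65.9 and 59.5 with acetate. Its groups were all apart. For NHP2 the log2 fold change was 0.17 ± 0.038 (SE) with TGF-β1 (adjusted p = 7.3e-04), -0.84 ± 0.043 with acetate against TGF-β1 (adjusted p = 1.7e-10) and -0.68 ± 0.041 with both agents against control (adjusted p = 1.6e-11). The rise with TGF-β1 lost its call with library totals (adjusted p = 0.10). NHP2 shares 27.4% of its exon bases with RMND5B on the opposite strand (means of 84, 84 and 57 CPM), and because the strand setting of the counting is not given, their reads may be mixed. GAR1, the remaining core protein, had the fewest reads of the 45 genes, with mean levels of 9.85 ± 0.849, 8.08 ± 0.630 and 5.53 ± 0.446 CPM and log2 fold changes of -0.28 and -0.54.

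Levels set per kilobase of exon allow these 4 partners to be compared. The mean level in control was 126 CPM per kb for NOP10, 65.8 for NHP2, 35.8 for DKC1 and 4.82 for GAR1. With TGF-β1 and acetate it was 156 for NOP10, 41 for NHP2, 15.2 for DKC1 and 2.7 for GAR1. The order of the 4 genes was the same in both groups, and the distance between NOP10 and the others was wider with acetate. The length is that of all annotated exons of a gene, so a gene with many unused exons reads low on this scale.

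**Figure D3:**
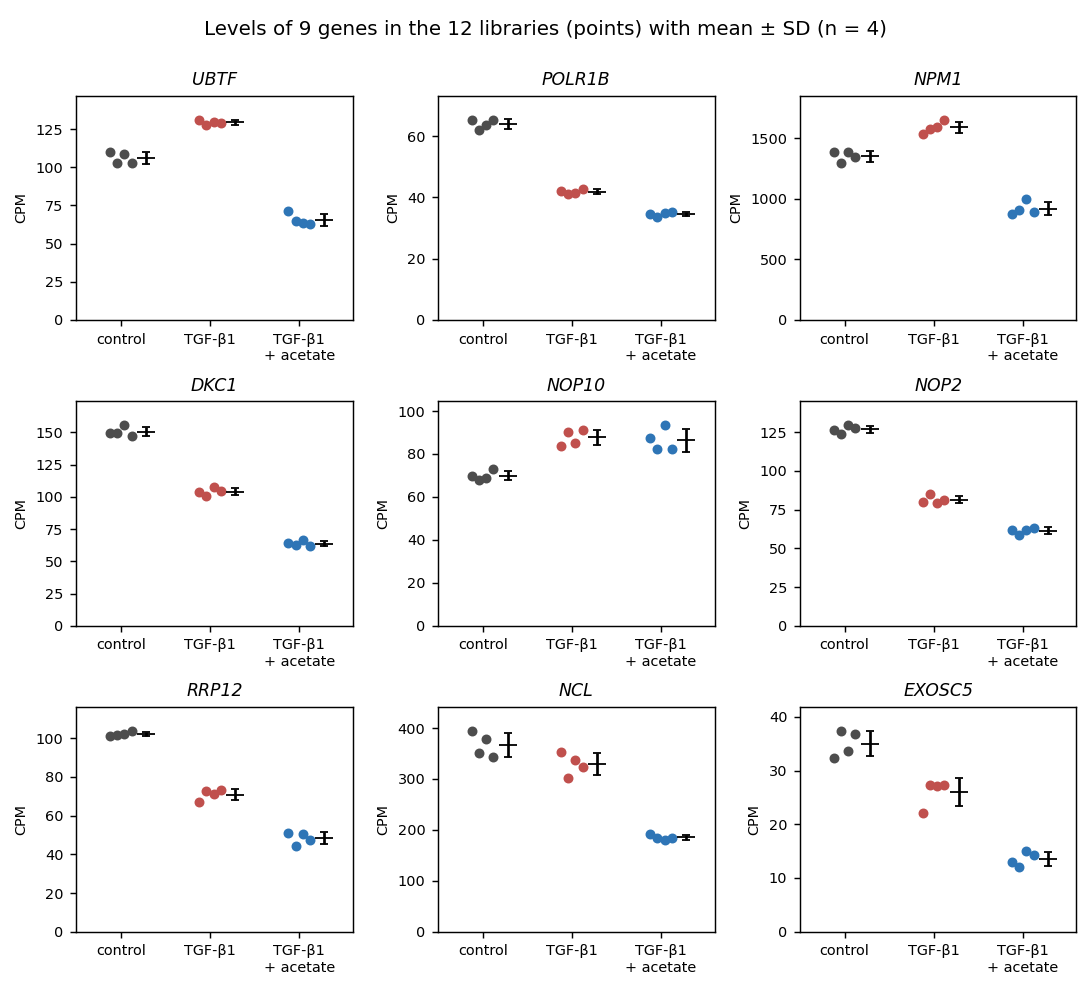
Level in CPM (vertical axis, from 0) of 9 genes in each of the 12 libraries (points), with the mean ± SD of each group (n = 4) beside them. UBTF, NPM1 and NOP10 are higher with TGF-β1 than in control, and of the 9 genes NOP10 alone overlaps between TGF-β1 and TGF-β1 with acetate.

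The abundant nucleolar proteins NPM1, NCL, NOLC1 and GNL3 made a large part of the summed level, and all 4 fell with acetate at a median of -0.64. NPM1, nucleophosmin, a histone chaperone that also shapes the granular part of the nucleolus (ENSG00000181163.13, chromosome 5, 171387116 to 171411137), was the most abundant of the 45 genes per length, at 354, 416 and 240 CPM per kb in control, TGF-β1 and acetate cells. NPM1 was at 1390, 1293, 1386 and 1347 CPM in control, at 1540, 1575, 1595 and 1655 with TGF-β1 and at 877, 905, 997 and 893 with acetate. It was above control with TGF-β1 and below control with acetate, in all libraries. For NPM1 the log2 fold change was 0.24 ± 0.034 (SE) with TGF-β1 (adjusted p = 1.2e-05), -0.78 ± 0.04 with acetate against TGF-β1 (adjusted p = 1.3e-10) and -0.56 ± 0.04 with both agents against control (adjusted p = 2.1e-10). NPM1 has 45 named pseudogenes in the annotation, so its count depends on how reads with several matches were treated. NCL, nucleolin, an RNA-binding protein of ribosomal RNA transcription and processing (ENSG00000115053.15, chromosome 2, 231453531 to 231483641), fell mainly with acetate. NCL was at 394, 350.1, 379 and 343 CPM in control, at 353, 302, 336 and 323 with TGF-β1 and at 192, 185, 180.5 and 183 with acetate. The control and TGF-β1 libraries overlapped, and the acetate libraries were below both. For NCL the log2 fold change was -0.15 ± 0.051 (SE) with TGF-β1 (adjusted p = 0.016), -0.82 ± 0.045 with acetate against TGF-β1 (adjusted p = 3.5e-10) and -0.98 ± 0.049 with both agents against control (adjusted p = 9.4e-13). The fall with TGF-β1 lost its call without library S16 (adjusted p = 0.075).

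NOLC1, a chaperone of snoRNPs in the nucleolus and Cajal bodies (ENSG00000166197.16, chromosome 10, 102152176 to 102163871), had its larger step with TGF-β1. NOLC1 was at 239, 218, 228 and 219 CPM in control, at 158, 148, 153 and 153 with TGF-β1 and at 110.3, 112, 111 and 116 with acetate. The 3 groups did not overlap. For NOLC1 the log2 fold change was -0.56 ± 0.038 (SE) with TGF-β1 (adjusted p = 1.1e-09), -0.44 ± 0.034 with acetate against TGF-β1 (adjusted p = 1.8e-08) and -1.01 ± 0.036 with both agents against control (adjusted p = 6.3e-15). GNL3, nucleostemin, a GTPase of nucleoli in dividing cells, had mean levels of 141 ± 5.19, 104 ± 3.08 and 73.4 ± 2.75 CPM and log2 fold changes of -0.43 with TGF-β1 and -0.49 with acetate. GNL3 also hosts 6 small nucleolar RNAs within its span, the most among the 8 of the 45 genes that host 26 in all, and the count of such a gene does not measure the hosted RNAs.

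The promoters of the list were read for the E-box core CACGTG, letters bound by several factors of the basic helix-loop-helix class. RefSeq promoters on GRCh38.p14 (250 bases before to 50 after each start, 300 in all) were found for 37 of the 45 genes. The motif reads the same on both strands. It was in the window of 13 of the 37 genes (35.1%), against 12.1% of 11499 protein-coding genes of the tables and 8.77% of all 27305 genes with a promoter entry. It was held by 12 of 29 biogenesis genes (41.4%), 1 of 8 exosome genes (12.5%) and 27 of 105 other genes of the pathway (25.7%). In 12 of the 13 genes (92.3%) it lay within 50 bases of the start, against 40.6% of the protein-coding genes that hold it. Those protein-coding genes were taken at any level and were not matched to the list, so these contrasts need not be particular to it. The stretches below come from the largest fall against control (EXOSC5), the gene that did not pass with acetate against TGF-β1 (NOP10) and genes of 4 other roles. Capitals mark the motif and each stretch is written 5′ to 3′ along the gene's strand, at chr19:41397336-41397395, minus strand, for EXOSC5, chr15:34343138-34343197, minus strand, for NOP10, chr19:39846364-39846423, minus strand, for FBL, chr3:52685988-52686047, plus strand, for GNL3, chr2:28894620-28894679, plus strand, for WDR43 and chr22:30591888-30591947, minus strand, for PES1.
EXOSC5: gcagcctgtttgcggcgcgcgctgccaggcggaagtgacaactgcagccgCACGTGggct
NOP10: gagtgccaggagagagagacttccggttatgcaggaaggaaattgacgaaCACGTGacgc
FBL: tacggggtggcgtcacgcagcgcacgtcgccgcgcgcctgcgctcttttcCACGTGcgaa
GNL3: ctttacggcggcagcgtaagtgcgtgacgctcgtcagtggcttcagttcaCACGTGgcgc
WDR43: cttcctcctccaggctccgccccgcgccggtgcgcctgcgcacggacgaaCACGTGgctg
PES1: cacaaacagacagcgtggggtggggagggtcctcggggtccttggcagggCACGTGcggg

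A match is a description of letters and not a site shown to be bound. EXOSC5 and NOP10 each hold the motif at 2 places in the window. They were the largest fall and the only rise past the threshold against control. Whether the motif has a part in these changes was not tested. The 13 genes with the motif had median log2 fold changes of -0.28 with TGF-β1, -0.64 with acetate and -0.85 with both agents against control. The 24 genes whose window lacks it had medians of -0.17, -0.50 and -0.70, and the ranges of both sets overlapped over most of their length.

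Assembly of the small subunit held 11 genes, of which 9 fell, 0 rose and 2 did not pass with TGF-β1. All 11 fell with acetate, at a median of -0.52, and all 11 were below control with both agents, at a median of -0.84. RRP12, which acts in export of pre-ribosomal particles (ENSG00000052749.13, chromosome 10, 97356358 to 97426076), had the smallest p of this role with TGF-β1. RRP12 was at 101, 102, 102 and 104 CPM in control, at 66.9, 72.7, 71.0 and 73.0 with TGF-β1 and at 51.2, 44.5, 50.5 and 47.2 with acetate. Its groups were apart. For RRP12 the log2 fold change was -0.52 ± 0.035 (SE) with TGF-β1 (adjusted p = 1.1e-09), -0.54 ± 0.046 with acetate against TGF-β1 (adjusted p = 5.2e-08) and -1.08 ± 0.043 with both agents against control (adjusted p = 3.1e-14). WDR43, a subunit of the small subunit processome that joins transcription to processing (ENSG00000163811.11, chromosome 2, 28894643 to 28948222), fell at both steps. WDR43 was at 200.2, 189.7, 197 and 187 CPM in control, at 137, 138, 138 and 139.5 with TGF-β1 and at 96.8, 96.5, 93.7 and 96.6 with acetate. The groups did not overlap. For WDR43 the log2 fold change was -0.48 ± 0.034 (SE) with TGF-β1 (adjusted p = 1.9e-09), -0.52 ± 0.031 with acetate against TGF-β1 (adjusted p = 9.1e-10) and -1.01 ± 0.033 with both agents against control (adjusted p = 1.2e-15).

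UTP14A, a processome component that activates a helicase (ENSG00000156697.12, chromosome X, 129906121 to 129929761), fell little with TGF-β1 and more with acetate. UTP14A was at 76.7, 76.0, 80.2 and 77.1 CPM in control, at 69.7, 72.1, 72.0 and 72.2 with TGF-β1 and at 43.9, 43.6, 43.1 and 42.8 with acetate. The groups did not overlap. For UTP14A the log2 fold change was -0.11 ± 0.033 (SE) with TGF-β1 (adjusted p = 0.0076), -0.71 ± 0.033 with acetate against TGF-β1 (adjusted p = 5.1e-11) and -0.84 ± 0.032 with both agents against control (adjusted p = 1.9e-14). NOB1, the nuclease that makes the last cut to the mature small subunit RNA (ENSG00000141101.12, chromosome 16, 69741867 to 69754940), fell at both steps. NOB1 was at 66.0, 61.5, 65.2 and 64.9 CPM in control, at 43.9, 42.4, 46.9 and 46.8 with TGF-β1 and at 32.3, 29.3, 33.4 and 31.4 with acetate. Each step left the groups apart. For NOB1 the log2 fold change was -0.51 ± 0.041 (SE) with TGF-β1 (adjusted p = 1.1e-08), -0.50 ± 0.048 with acetate against TGF-β1 (adjusted p = 2.2e-07) and -1.03 ± 0.045 with both agents against control (adjusted p = 1.5e-13). NOB1 shares 20.2% of its exon bases with an unnamed gene on the opposite strand, which leaves its reads uncertain in the same way as for NHP2.

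The other 7 small subunit genes fell with acetate by between 0.31 and 0.71 on the log2 scale. NOP14 and UTP15, both processome components, fell at both steps, with log2 fold changes of -0.45 and -0.38 for NOP14 and -0.40 and -0.31 for UTP15. WDR75, a processome component of the same early module as UTP15, had -0.19 and -0.37, and RRP9, a protein bound to the U3 snoRNA, -0.34 and -0.64. TSR1, a late GTPase-like factor, had -0.39 and -0.40; it shares 20.8% of its exon bases with SGSM2 and SRR on the opposite strand. UTP20 and BYSL did not pass with TGF-β1. UTP20, a large scaffold, had a log2 fold change of 0.038 (adjusted p = 0.53) and BYSL, bystin, -0.069 (adjusted p = 0.23), and both fell with acetate, by 0.71 and 0.68 on the log2 scale.

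Assembly of the large subunit held 7 genes, of which 6 fell and 1 rose with TGF-β1 and 7 fell with acetate, at medians of -0.19 and -0.54. NOP2, the cytosine methyltransferase of large subunit RNA and a proliferation antigen (ENSG00000111641.11, chromosome 12, 6556863 to 6568691), had the largest fall of all 45 genes with TGF-β1. NOP2 was at 126, 124, 129 and 128 CPM in control, at 80.2, 84.9, 79.5 and 81.2 with TGF-β1 and at 61.7, 58.7, 62.1 and 63.4 with acetate. The groups were apart. For NOP2 the log2 fold change was -0.63 ± 0.034 (SE) with TGF-β1 (adjusted p = 5.4e-11), -0.40 ± 0.037 with acetate against TGF-β1 (adjusted p = 1.5e-07) and -1.04 ± 0.035 with both agents against control (adjusted p = 2.4e-15). NOP2 shares 2550 of its 4687 exon bases with an unnamed gene on the same strand, so some of its reads may belong to that gene or be lost to it. PES1, pescadillo, which forms a complex with BOP1 and WDR12 (ENSG00000100029.17, chromosome 22, 30576625 to 30607083), had the smallest p of this role with acetate. PES1 was at 111, 112, 113 and 117 CPM in control, at 87.8, 97.8, 95.4 and 95.2 with TGF-β1 and at 59.6, 56.1, 61.8 and 57.6 with acetate. Its TGF-β1 libraries lay between the others without overlap. For PES1 the log2 fold change was -0.27 ± 0.038 (SE) with TGF-β1 (adjusted p = 1.0e-05), -0.67 ± 0.042 with acetate against TGF-β1 (adjusted p = 1.4e-09) and -0.95 ± 0.04 with both agents against control (adjusted p = 8.0e-14).

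The partners of PES1 fell too, but not equally. BOP1 had mean levels of 104 ± 4.43, 95.9 ± 6.27 and 65.3 ± 2.71 CPM and log2 fold changes of -0.11 and -0.54. The fall of BOP1 with TGF-β1 lost its call without library S4 (adjusted p = 0.055), S15 (0.15) or S17 (0.064), and with no filter on low counts (0.051). WDR12 had mean levels of 38.7 ± 1.77, 33.7 ± 1.33 and 28.2 ± 0.617 CPM and log2 fold changes of -0.20 and -0.25. NOP16, a nucleolar factor of large subunit assembly, had log2 fold changes of -0.12 and -0.58, the first without a call when library S15 was left out (adjusted p = 0.057). RRP1, a nucleolar factor, had -0.19 and -0.55. RRP1B, its paralogue, which binds a phosphatase at the nucleolus, differed: it rose with TGF-β1 (0.21) and fell only slightly with acetate (-0.13, or 0.00026 with library totals). Its mean levels were 85.5 ± 3.69, 98.6 ± 3.04 and 89.4 ± 3.25 CPM, and the control and acetate libraries overlapped.

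**Figure D4:**
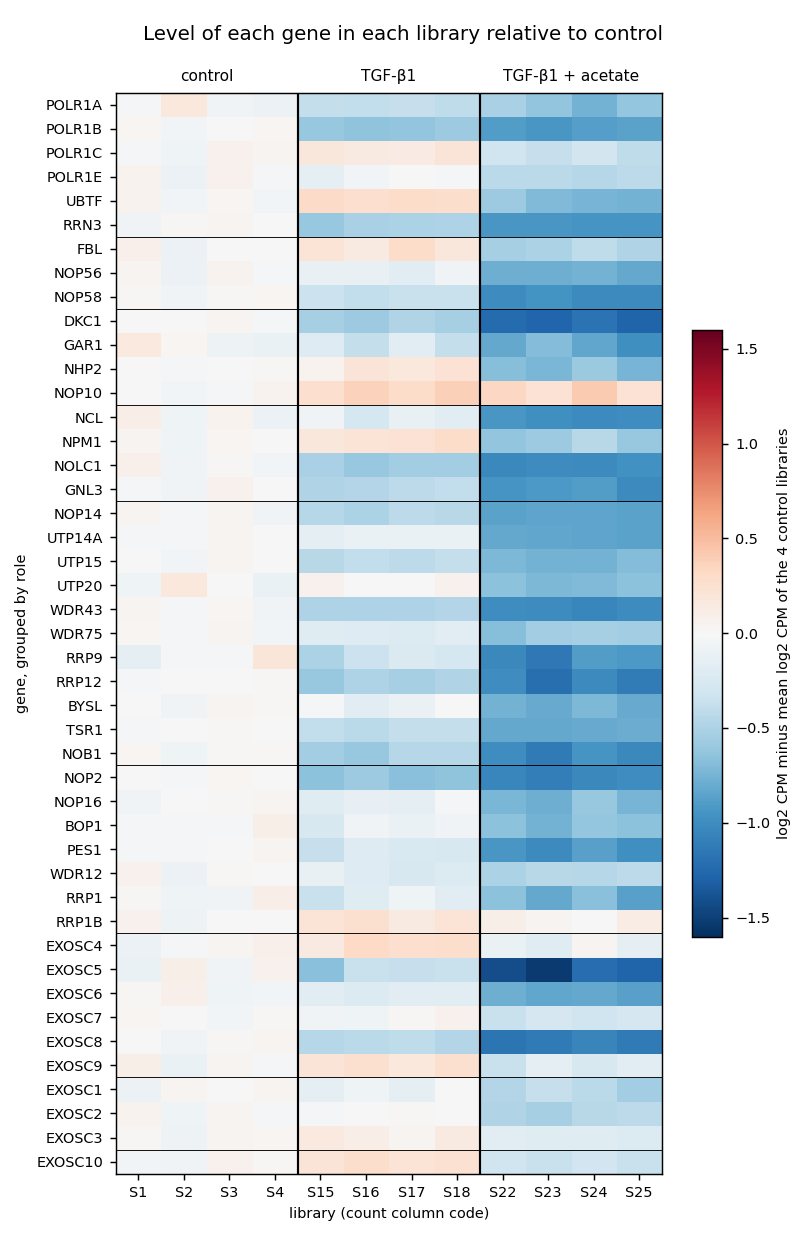
Log2 CPM of each of the 45 genes (rows, grouped by role) in each of the 12 libraries (columns) minus the mean of the 4 control libraries; red is higher and blue lower than control. The acetate libraries S22 to S25 are lower than control in nearly all rows; NOP10 and RRP1B are at or above control in all 4 of them and EXOSC4 in S24, and the TGF-β1 libraries S15 to S18 hold both colours.

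The map of all libraries shows that for most genes the spread within a group was small beside the step to the acetate group, with NOP10, RRP1B and EXOSC4 as exceptions against control. Members of one role did not share a direction with TGF-β1 in the polymerase, snoRNP, nucleolar and exosome rows, whereas the small subunit rows were lower or near control throughout.

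Of the 10 exosome genes, 4 rose, 3 fell and 3 did not pass with TGF-β1, at a median of -0.0025. That is 40% higher and 30% lower, near the 34.1% and 32.8% of all genes tested. All 10 fell with acetate, at a median of -0.45, where 30.4% of all genes were lower. Against control 9 were lower with both agents, at a median of -0.40, where 34.4% of all genes were. The ring is made of 3 pairs of related proteins, EXOSC4 with EXOSC9, EXOSC5 with EXOSC8 and EXOSC6 with EXOSC7, a known arrangement by which the genes are ordered here after their values had been seen. Both genes of the first pair rose with TGF-β1, both genes of the second fell, and in the third EXOSC6 fell and EXOSC7 did not pass (adjusted p = 0.96).

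EXOSC4 (ENSG00000178896.7, chromosome 8, 144078626 to 144080647) and EXOSC9 (ENSG00000123737.12, chromosome 4, 121801317 to 121817021) make the first pair. EXOSC4 was at 17.1, 17.8, 18.7 and 19.2 CPM in control, at 20.1, 22.6, 21.9 and 22.1 with TGF-β1 and at 16.8, 15.9, 18.7 and 16.4 with acetate. Its TGF-β1 libraries lay above all others, and its control and acetate libraries overlapped. For EXOSC4 the log2 fold change was 0.26 ± 0.053 (SE) with TGF-β1 (adjusted p = 4.0e-04), -0.34 ± 0.059 with acetate against TGF-β1 (adjusted p = 1.0e-04) and -0.10 ± 0.059 with both agents against control (adjusted p = 0.13). EXOSC9 was at 46.1, 39.9, 44.6 and 42.2 CPM in control, at 49.7, 51.6, 48.6 and 51.4 with TGF-β1 and at 33.8, 38.7, 36.1 and 38.2 with acetate. It was higher than control in all TGF-β1 libraries and lower in all acetate libraries. For EXOSC9 the log2 fold change was 0.23 ± 0.045 (SE) with TGF-β1 (adjusted p = 3.1e-04), -0.45 ± 0.045 with acetate against TGF-β1 (adjusted p = 4.1e-07) and -0.23 ± 0.05 with both agents against control (adjusted p = 3.4e-04).

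EXOSC5 (ENSG00000077348.8, chromosome 19, 41386374 to 41397479) had the largest fall of all 45 genes against control, and its ring partner is EXOSC8 (ENSG00000120699.12, chromosome 13, 36998816 to 37009613). EXOSC5 was at 32.4, 37.3, 33.6 and 36.8 CPM in control, at 22.01, 27.3, 27.2 and 27.2 with TGF-β1 and at 13.0, 12.1, 14.98 and 14.3 with acetate. Library S15 lay apart from the other TGF-β1 libraries, and no groups overlapped. For EXOSC5 the log2 fold change was -0.43 ± 0.066 (SE) with TGF-β1 (adjusted p = 2.3e-05), -0.92 ± 0.077 with acetate against TGF-β1 (adjusted p = 4.4e-08) and -1.36 ± 0.076 with both agents against control (adjusted p = 5.0e-12). EXOSC8 was at 48.4, 46.2, 48.7 and 49.8 CPM in control, at 35.3, 35.8, 36.5 and 34.9 with TGF-β1 and at 21.5, 22.1, 23.2 and 22.1 with acetate. Its groups did not overlap either, with control highest and acetate lowest. For EXOSC8 the log2 fold change was -0.43 ± 0.038 (SE) with TGF-β1 (adjusted p = 2.9e-08), -0.67 ± 0.043 with acetate against TGF-β1 (adjusted p = 1.7e-09) and -1.12 ± 0.039 with both agents against control (adjusted p = 4.4e-15).

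The third pair moved less evenly. EXOSC6 was at 61.5, 64.4, 57.8 and 58.9 CPM in control, at 53.2, 52.0, 53.8 and 53.8 with TGF-β1 and at 35.1, 34.0, 34.4 and 33.3 with acetate. This gene, EXOSC6 (ENSG00000223496.2, chromosome 16, 70246778 to 70251930), had separate groups throughout. For EXOSC6 the log2 fold change was -0.18 ± 0.039 (SE) with TGF-β1 (adjusted p = 5.6e-04), -0.63 ± 0.036 with acetate against TGF-β1 (adjusted p = 5.8e-10) and -0.83 ± 0.039 with both agents against control (adjusted p = 3.5e-13). EXOSC7 had mean levels of 20.9 ± 0.479, 20.7 ± 0.927 and 16.9 ± 0.518 CPM, a log2 fold change of -0.0027 with TGF-β1 and a fall of 0.28 with acetate.

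The cap proteins EXOSC1, EXOSC2 and EXOSC3 bind RNA at the entry of the ring. EXOSC2 (ENSG00000130713.15, chromosome 9, 130693721 to 130704894) did not pass with TGF-β1 and fell with acetate. EXOSC2 was at 72.9, 67.4, 72.3 and 69.1 CPM in control, at 68.7, 70.1, 71.4 and 69.9 with TGF-β1 and at 50.4, 48.9, 51.5 and 52.8 with acetate. The acetate libraries lay below all others, and the other groups overlapped. For EXOSC2 the log2 fold change was -0.0023 ± 0.036 (SE) with TGF-β1 (adjusted p = 0.96), -0.45 ± 0.035 with acetate against TGF-β1 (adjusted p = 2.1e-08) and -0.47 ± 0.037 with both agents against control (adjusted p = 8.9e-10). EXOSC3 (ENSG00000107371.12, chromosome 9, 37766978 to 37801437) had a small rise with TGF-β1 that lost its call in 9 of 15 other settings, among them leaving out S1, S2, S3, S4, S15 or S18, with adjusted p-values up to 0.85. EXOSC3 was at 36.9, 34.3, 37.5 and 37.1 CPM in control, at 40.5, 39.1, 37.5 and 40.1 with TGF-β1 and at 32.0, 32.0, 31.8 and 31.3 with acetate. On this scale TGF-β1 library S17 and control library S3 were level; with factors from these 8 libraries alone the groups did not overlap, which is how EXOSC3 is counted above. The acetate libraries were below both groups. For EXOSC3 the log2 fold change was 0.11 ± 0.042 (SE) with TGF-β1 (adjusted p = 0.025), -0.29 ± 0.04 with acetate against TGF-β1 (adjusted p = 1.0e-05) and -0.20 ± 0.04 with both agents against control (adjusted p = 2.1e-04). EXOSC1 had mean levels of 31.9 ± 1.37, 29.9 ± 1.39 and 23.2 ± 1.23 CPM, a log2 fold change of -0.087 with TGF-β1 (adjusted p = 0.10) and a fall of 0.35 with acetate.

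EXOSC10, the nuclear exonuclease attached to the ring (ENSG00000171824.13, chromosome 1, 11066618 to 11099881), rose with TGF-β1 and fell below control with acetate. EXOSC10 was at 64.2, 63.7, 69.3 and 67.1 CPM in control, at 75.9, 80.2, 76.5 and 78.5 with TGF-β1 and at 52.9, 51.4, 53.3 and 51.6 with acetate. The 3 groups were apart. For EXOSC10 the log2 fold change was 0.24 ± 0.037 (SE) with TGF-β1 (adjusted p = 2.3e-05), -0.56 ± 0.034 with acetate against TGF-β1 (adjusted p = 1.1e-09) and -0.34 ± 0.036 with both agents against control (adjusted p = 8.4e-08). Its exons overlap unnamed genes on the opposite strand over 39.3% of their bases, so its reads may be mixed with theirs.

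**Figure D5:**
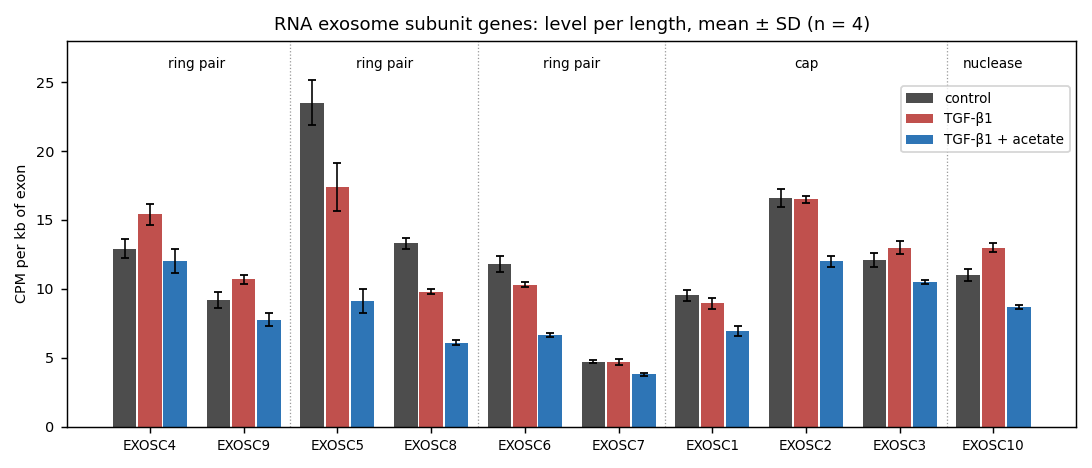
Mean level of the 10 exosome genes in CPM per kilobase of exon (bars from 0, error bars SD, n = 4) in control, TGF-β1 and TGF-β1 with acetate. EXOSC5 is the tallest bar in control (23.5) and falls to 9.15 with acetate, and EXOSC7 is the lowest in control (4.7).

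Per length of exon the exosome genes stood at unlike levels in control. EXOSC5 was at 23.5 ± 1.62 CPM per kb, EXOSC2 at 16.6 ± 0.624, EXOSC8 at 13.3 ± 0.411 and EXOSC4 at 12.9 ± 0.694, the last 2 within their spread of each other (SD, n = 4). EXOSC3 (12.1 ± 0.477), EXOSC6 (11.8 ± 0.567) and EXOSC10 (11 ± 0.437) came next, then EXOSC1 (9.53 ± 0.409), EXOSC9 (9.17 ± 0.576) and EXOSC7 (4.7 ± 0.108). With acetate EXOSC5 was at 9.15 ± 0.873, below EXOSC4 (12 ± 0.87), EXOSC2 (12 ± 0.395) and EXOSC3 (10.5 ± 0.111). The level of EXOSC5 thus went from the highest of the 10 to the middle of their order, as the plot of exosome levels per length shows.

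Other genes of the same pathway, 119 from a list of further polymerase I, snoRNP, assembly and exosome cofactor genes, fell more often than they rose in each comparison. With TGF-β1, 26 rose (21.8%) and 62 fell (52.1%), at a median of -0.11, where the background was 34.1% and 32.8% of all genes. With acetate against TGF-β1, 7 rose (5.88%) and 92 fell (77.3%), at a median of -0.33, where the background was 33.3% and 30.4%. Against control 9 rose (7.56%) and 95 fell (79.8%) with both agents, at a median of -0.49, where the background was 36.1% and 34.4%. Of the 18 exosome cofactors, 7 rose (38.9%) and 6 fell (33.3%) with TGF-β1, near the background, and 4 rose (22.2%) and 9 fell (50%) with acetate. Of 41 further large subunit genes, 4 rose (9.76%) and 30 fell (73.2%) with TGF-β1, and 0 rose and 34 fell (82.9%) with acetate. The other roles were less one-sided with TGF-β1. Of 41 further small subunit genes, 9 rose (22%) and 19 fell (46.3%) with TGF-β1, and 3 rose (7.32%) and 36 fell (87.8%) with acetate. Of 9 further polymerase I genes, 3 rose (33.3%) and 3 fell (33.3%), then 0 and 7 (77.8%). Of 10 further snoRNP genes, 3 rose (30%) and 4 fell (40%), then 0 and 6 (60%).

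In that list ZCCHC8, a subunit of the nuclear exosome targeting complex, had the largest fall with TGF-β1 and the largest fall against control. Its mean levels were 71.2 ± 1.88, 39.2 ± 1.01 and 28.1 ± 0.757 CPM, with log2 fold changes of -0.86 with TGF-β1 and -1.34 against control. The large subunit factors RPF2 (-0.81) and MAK16 (-0.79) came next with TGF-β1. URB1, a large subunit assembly factor, was at 93.9 ± 2.19, 181 ± 4.27 and 182 ± 4.76 CPM and rose by 0.95 on the log2 scale with TGF-β1. SHQ1, the chaperone of dyskerin, rose by 0.63 with TGF-β1, in the comparison in which DKC1 itself fell. With acetate against TGF-β1, KRR1, a processome component, went from 179 ± 4.82 to 353 ± 7.54 CPM, a log2 fold change of 0.99, with a control level of 146 ± 1.70 CPM. SKIV2L, the helicase of the cytoplasmic SKI complex, rose by 0.37 and RIOK3, a kinase of cytoplasmic small subunit maturation, by 0.35. The largest falls with acetate after PWP2 were GLTSCR2 (-0.94) and MRTO4 (-0.77), both of large subunit assembly. Against control PPAN (-1.19) and RSL1D1 (-1.13) followed ZCCHC8 among the falls, and KRR1 (1.28), URB1 (0.96) and ZFC3H1 (0.85), a link from the exosome to polyadenylated nuclear RNA, were the largest rises.

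PWP2, a processome component, had the largest fold change of that list in both comparisons with TGF-β1 alone, a log2 fold change of 1.22 with TGF-β1 (adjusted p = 0.027) and -1.54 with acetate (adjusted p = 0.016). It was at 0.784, 1.14, 3.79 and 0.560 CPM in the TGF-β1 libraries and between 0.613 and 0.796 CPM in control. Library S17 was far above the rest, and without it the log2 fold changes were 0.23 (adjusted p = 0.45) and -0.58 (adjusted p = 0.12). Overlap with genes on the opposite strand was checked for the 45 genes alone and not for these further genes.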

How the data were processed

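RNA of A549 cells in 3 groups of 4 libraries was measured by stranded total RNA sequencing (paired reads of 75 bp, per the labels' protocols). Per the submitters' processing notes, bcl2fastq, HISAT2, limma and genome build hg38 were used; for read counting, neither the tool nor its strand setting was given in the sources used here, and tool versions were not either. The authors deposited 2 tables of raw counts per gene, each with 8 libraries, beside their own log2 fold changes, p-values and q-values; the deposited log2 values were read as the later-named group minus the earlier. A further 32 columns of values per library were not used. Count columns carry no sample labels and were placed by the tables that hold them: the columns found in both as TGF-β1, and those found in 1 table as control or acetate by that table's name. Raw counts of the TGF-β1 columns were identical in both tables.

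The counts were tested with edgeR 4.0.16 in R 4.3.3: filterByExpr (minimum count 10, minimum total 15), TMM factors, glmQLFit and glmQLFTest, two-sided, Benjamini-Hochberg adjustment over all genes tested, threshold 0.05. The comparisons of TGF-β1 to control and of acetate to TGF-β1 each used the table holding both groups. Acetate was compared with control in a joint fit of the 12 libraries on 23771 shared genes. That fit also gave the printed CPM levels, except those of the cell type markers, which used library totals without TMM factors. The test scripts were tested on simulated data. Pairs of libraries in a group differed by 3.71 to 16.3 chi-square units per degree of freedom, so none was a duplicate. Genes were matched to GENCODE release 29 (99.1%); 44 of the 45 genes had the same coordinates there, the exception being POLR1C. Promoters are from RefSeq, GRCh38.p14.

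The 45 genes, their roles, the 119 further pathway genes and the tests were chosen with earlier results of these data known. Values in every library are given for the 6 largest rises and falls past the threshold in each comparison and the smallest p of each role; of the further genes, the 3 largest rises and falls are named. Alternatives were DESeq2 1.42.0, DESeq2 size factors, library totals, limma-voom (limma 3.58.1), no filter, protein-coding genes only, a joint fit and leaving out each library.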

Additional observations from a re-analysis of the deposited data

Results flagged for a closer look

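Of 135 groups of 4 libraries (45 genes in 3 groups), 7 held a library set apart from the other 3 by more than Dixon's critical share of the group's whole range; chance flags about 1 in 20 groups, which would be about as many. EXOSC5 was at 22.01 CPM in TGF-β1 library S15, where the other TGF-β1 libraries were between 27.2 and 27.3 CPM. BOP1 was at 110.7 CPM in control library S4, with the others between 101.6 and 102.6 CPM. NOP58 was at 96.1 CPM in control library S2 (others 101.4 to 102.2) and at 51.9 CPM in acetate library S23 (others 49.5 to 49.8). UTP14A was at 69.7 CPM in TGF-β1 library S15 (others 72.0 to 72.2). WDR43 was at 139.5 CPM in TGF-β1 library S18 (others 137.4 to 137.8) and at 93.7 CPM in acetate library S24 (others 96.5 to 96.8). The falls of these 5 genes with acetate against TGF-β1 passed the threshold without any single library.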

How the results depend on the processing

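No paired analysis was possible because the count columns carry no replicate numbers, so the planned replicate block was not run. Over 15 alternatives each for TGF-β1 against control and acetate against TGF-β1 and 18 for acetate against control, the count of lower genes among the 45 ran from 26 to 32, from 42 to 44 and from 42 to 43, and the count of higher genes with TGF-β1 from 8 to 11. Library totals in place of TMM factors shifted the median of all genes from 0.016 to -0.086 with TGF-β1 and from 0.026 to 0.16 with acetate. They gave medians of the 45 genes of -0.29, -0.39 and -0.71 in the 3 comparisons, 1 gene higher with acetate and 2 against control, and 13 of the further pathway genes higher with acetate. NOP10 turned to 0.12 with acetate (adjusted p = 0.017), RRP1B to 0.00026, and POLR1A lost its call (adjusted p = 0.060); RRP1B against control gained one (0.11, adjusted p = 0.034). Leaving out a library moved the median of the 45 genes against control between -0.80 (without S2) and -0.73 (without S4). With TGF-β1, 18 of the single-gene results over all alternatives lost their call, 6 gained one and 0 reversed. The losses of EXOSC3, BOP1, NOP16, NCL and NOP56 are given above, and POLR1C (adjusted p = 0.21) and NHP2 lost theirs with library totals. The gains were all falls: with library totals EXOSC1 (adjusted p = 9.7e-04), POLR1E (0.0067), BYSL (0.009) and EXOSC2 (0.026), EXOSC1 without S1 (0.012) and POLR1E without S2 (0.023). EXOSC1 was also lower in the authors' deposited values (q = 0.031). EXOSC4 against control gained a call without S24 (adjusted p = 0.023). The counts cannot show changes of the whole RNA content of a cell, and what the TMM factors take as unchanged was not tested.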
